A study of Bos taurus with 15 samples.

Results

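MMP3 (ENSBTAG00000037768.3) and MMP12 (ENSBTAG00000053542.1) are 2 of the 21665 genes in the deposited count table, and both passed the filter on low counts that left 14264 genes to be tested. They were chosen by their fold change in the comparison of wild-type (WT) ARGFX with control, in which their increases were among the largest of the genes called, so their increase over control with WT ARGFX is described here without a test. Their symbols come from the study's own list of genes upregulated with WT ARGFX.

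Matrix metalloproteinases are zinc-dependent enzymes that cut proteins of the extracellular matrix. They are secreted as inactive precursors, become active once a prodomain is removed, and are held in check by tissue inhibitors of metalloproteinases. MMP3, or stromelysin-1, cuts proteoglycans, fibronectin and laminin and activates the precursors of other metalloproteinases, and fibroblasts are a known source of it. MMP12, or macrophage elastase, cuts elastin and is best known from macrophages. In the RefSeq annotation of assembly ARS-UCD2.0 they lie next to each other on chromosome 15 with 0 annotated genes between them. Their outer neighbours are MMP13 on the MMP12 side and MMP1 on the MMP3 side, and 8 MMP genes in all carry a symbol on that chromosome.

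The cells were primary bovine fetal fibroblasts (BFFs) at passage 4, derived from skin of the trunk of a Bos taurus fetus aged 6 months. Every sample therefore comes from the cells of a single animal, and the replicates are transfections. Cells were electroporated with an empty pSF-CMV-Puro-COOH plasmid (control, 4 samples) or with that plasmid carrying WT ARGFX (4 samples), mutant ARGFX (3 samples) or LEUTX (4 samples). ARGFX and LEUTX are homeobox genes of the ETCHbox group, which encode transcription factors of the early embryo and are not natively expressed in fibroblasts. Each coding sequence was driven by the constitutive CMV promoter and ended in a 3xFLAG tag. The mutant ARGFX plasmid encodes a short protein that has no homeodomain. All groups were selected with puromycin at 4 μg/ml, and RNA was taken after 72 h. Levels come from a strong ectopic promoter and say nothing of the amounts of these proteins in an embryo.

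Total expected counts (kallisto's estimates of reads per gene) ranged from 25947911 to 28163565 in the control samples, from 31359218 to 35178524 with WT ARGFX, from 28519622 to 41554242 with mutant ARGFX and from 26917853 to 35454192 with LEUTX. Because 2 columns of the table share 1 WT ARGFX header, these samples are called unnumbered A and unnumbered B. Unnumbered B stood apart from its group over all genes, with a chi-square per gene of 107 to 129 against the other WT ARGFX samples, where those differed from each other by 6.22 to 8.54. Controls 2 and 3 differed by 95.7. Both MMP genes had whole expected counts in 15 of 15 samples, with the lowest at 51 for MMP3 in control 4, so no value below rests on a count of 0. Levels are given as CPM, counts scaled to library size after TMM normalization. This scale is not corrected for transcript length, so the levels of MMP3 and MMP12 are not compared with each other.

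ARGFX RNA lay at 3039 to 4506 CPM with the WT plasmid and at 3408 to 6606 CPM with the mutant plasmid, and no control sample exceeded an expected count of 1, nor any LEUTX sample 5.7. LEUTX RNA lay at 1314 to 1781 CPM with its own plasmid, and no control sample exceeded an expected count of 1, nor any WT or mutant ARGFX sample 11.3. Each transfected group thus held RNA of the gene its label names. WT and mutant ARGFX share the same ARGFX entry, so these values cannot tell WT from mutant RNA. The paper states that reads of the ARGFX samples were aligned and viewed to check which version was present.

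MMP3 was highest with WT ARGFX, lower with LEUTX, and close to control with mutant ARGFX. In the control samples 1 to 4 it lay at 2.99, 3.43, 1.92 and 1.95 CPM. With WT ARGFX it lay at 29.3 and 25.6 CPM in replicates 1 and 2 and at 37.1 and 42.8 CPM in unnumbered A and B. The lowest WT ARGFX sample was thus well above the highest control sample. The fitted log2 fold change over control was 3.71 (standard error, SE, 0.22), a 13.1-fold difference, and it was 3.57 without unnumbered B. Since this comparison chose the gene, the value is a description.

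MMP12 was also higher with WT ARGFX than in control, but was highest with LEUTX. It lay at 4.60, 3.76, 3.19 and 2.36 CPM in control samples 1 to 4. With WT ARGFX it lay at 20.4 and 18.2 CPM in replicates 1 and 2 and at 19.3 and 22.4 CPM in unnumbered A and B. The WT ARGFX samples were close together, with an SD of 8.92% of their mean (n = 4), against 22.9% for MMP3 in the same samples. The log2 fold change over control was 2.53 (SE 0.18), or 5.76-fold, and it was 2.46 without unnumbered B, again as a description. A gene was called where the quasi-likelihood test of edgeR, adjusted over all genes tested, gave p under 0.05 and the fold change exceeded 1.5. By that rule 877 genes, 6.15% of those tested, were called up with WT ARGFX against control and 6.86% down, and nothing is read from the place of MMP3 and MMP12 among them, since this comparison chose them.

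**Figure D1:**
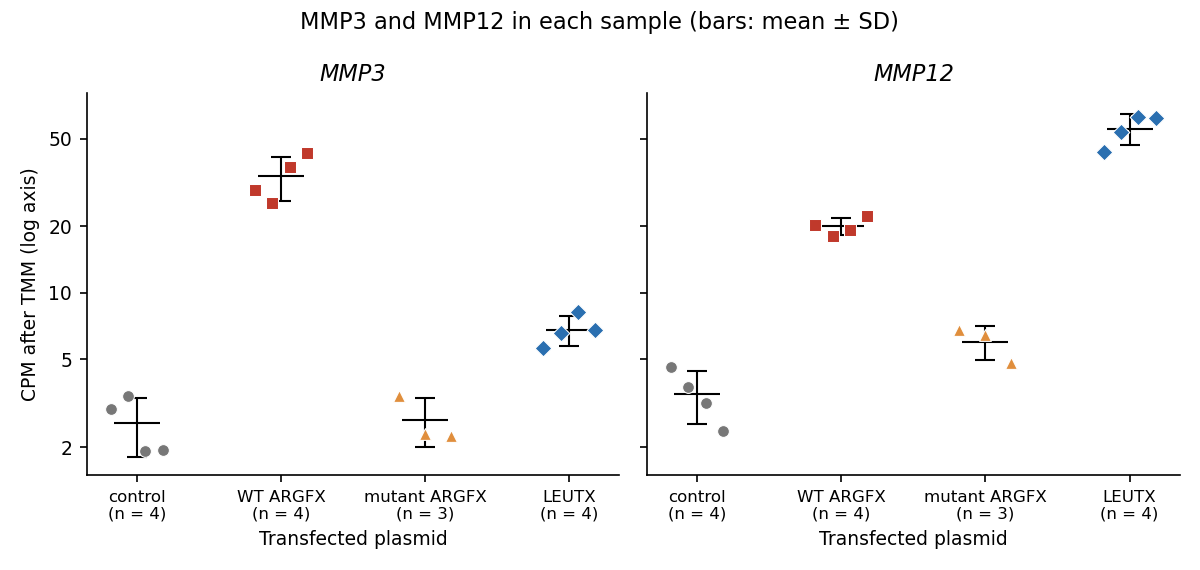
CPM after TMM normalization (log axis) of MMP3 and MMP12 in each of the 15 samples by transfected plasmid, with the mean ± SD of each group as bars. MMP3 is highest with WT ARGFX (25.6 to 42.8 CPM) and MMP12 with LEUTX (43.7 to 62.7 CPM), and the control and mutant ARGFX samples overlap for MMP3 only.

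With LEUTX the genes moved unequally. MMP3 lay at 5.66, 6.61, 8.22 and 6.77 CPM in LEUTX samples 1 to 4, all above the highest control sample at 3.43 CPM and below the lowest WT ARGFX sample at 25.6 CPM. MMP12 lay at 43.7, 53.5, 62.7 and 62.2 CPM in the same samples, all above the highest WT ARGFX sample at 22.4 CPM. Over control, MMP3 rose 2.65-fold (log2 fold change 1.41, SE 0.22, edgeR adjusted p = 5.05e-05) and MMP12 rose 15.9-fold (log2 fold change 3.99, SE 0.18, edgeR adjusted p = 1.87e-11). In this comparison 12.8% of all genes tested were called up and 14.0% down, and MMP12 stood at rank 90 and MMP3 at rank 600 of the 1827 genes called up, by fold change. The control samples are those that took part in the choice of these genes, so low values in them by chance would raise both folds.

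With mutant ARGFX, MMP3 lay at 3.43, 2.31 and 2.26 CPM in samples 1 to 3, inside the range of the control samples. Its log2 fold change over control was 0.04, and the 95% confidence interval of the fold ran from 0.718 to 1.48 (edgeR adjusted p = 0.935). A change of MMP3 larger than 1.5-fold in either direction therefore lies outside that interval, and only folds between 0.718 and 1.48 lie within it. MMP12 lay at 6.79, 6.44 and 4.81 CPM with mutant ARGFX, just above the highest control sample at 4.60 CPM.

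MMP12 was thus 1.72-fold higher with mutant ARGFX than in control (log2 fold change 0.78, SE 0.19, edgeR adjusted p = 0.0167). Of all genes tested, 1.26% were called up and 2.57% down in this comparison. The control samples are again those that took part in the choice of the genes, so control values low by chance would raise this fold and lower its p. The call was lost when the fit held the mutant ARGFX and control samples alone (edgeR adjusted p = 0.0579), without mutant ARGFX sample 1 (0.0871) and without mutant ARGFX sample 2 (0.0606), while the fold stayed between 0.64 and 0.94 on the log2 scale over the 7 fits that each left out a mutant ARGFX or control sample.

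The comparison of LEUTX with mutant ARGFX holds no sample of the comparison by which the genes were chosen, although earlier results from all groups were known at the time of that choice and the fit takes its estimate of the spread from all 15 samples. In it MMP3 was 2.57-fold higher with LEUTX (log2 fold change 1.36, SE 0.23, edgeR adjusted p = 0.000195), and MMP12 9.28-fold higher (log2 fold change 3.21, SE 0.19, edgeR adjusted p = 1.12e-09). No LEUTX sample overlapped a mutant ARGFX sample for either gene. Of all genes tested, 10.3% were called up and 12.1% down in this comparison. A fit to the LEUTX and mutant ARGFX samples alone gave log2 fold changes of 1.36 for MMP3 and 3.22 for MMP12 (edgeR adjusted p = 0.000118 and 2.95e-08). Both calls held in each of the 7 fits that left out a LEUTX or mutant ARGFX sample, with log2 fold changes from 1.26 to 1.59 for MMP3 and from 3.09 to 3.34 for MMP12.

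Between LEUTX and WT ARGFX the genes differed in opposite directions. MMP3 was 4.93-fold lower with LEUTX (log2 fold change -2.30, SE 0.20, edgeR adjusted p = 9.82e-08), whereas MMP12 was 2.77-fold higher (log2 fold change 1.47, SE 0.16, edgeR adjusted p = 1.27e-06). The background here was 9.82% of genes called up and 11.8% down. The WT ARGFX samples took part in the choice of the genes for their high values, which would enlarge the MMP3 difference and lessen that of MMP12. Of the 414 genes called up over control with both WT ARGFX and LEUTX, 123 were higher with LEUTX, MMP12 among them, 287 were not called between them, and 4 were higher with WT ARGFX. These 4, looked up after their values were seen, are MMP3, ASPA (ENSBTAG00000003629.5, the enzyme aspartoacylase), ENSBTAG00000004494.5 and ENSBTAG00000006001.6. The differences from LEUTX to WT ARGFX of the other 3 were smaller, with log2 fold changes of -0.75, -0.68 and -0.92.

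Against mutant ARGFX, WT ARGFX gave 12.7-fold more MMP3 RNA (log2 fold change 3.67, SE 0.24, edgeR adjusted p = 2.69e-08) and 3.35-fold more MMP12 RNA (log2 fold change 1.75, SE 0.18, edgeR adjusted p = 1.17e-05). Few genes were called in this comparison, 0.386% up and 1.12% down. Both genes were chosen for high values in these WT ARGFX samples, which would enlarge both folds and lower their p. Nothing is therefore read from the place of MMP3 and MMP12 among the 55 genes called higher with WT ARGFX.

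**Figure D2:**
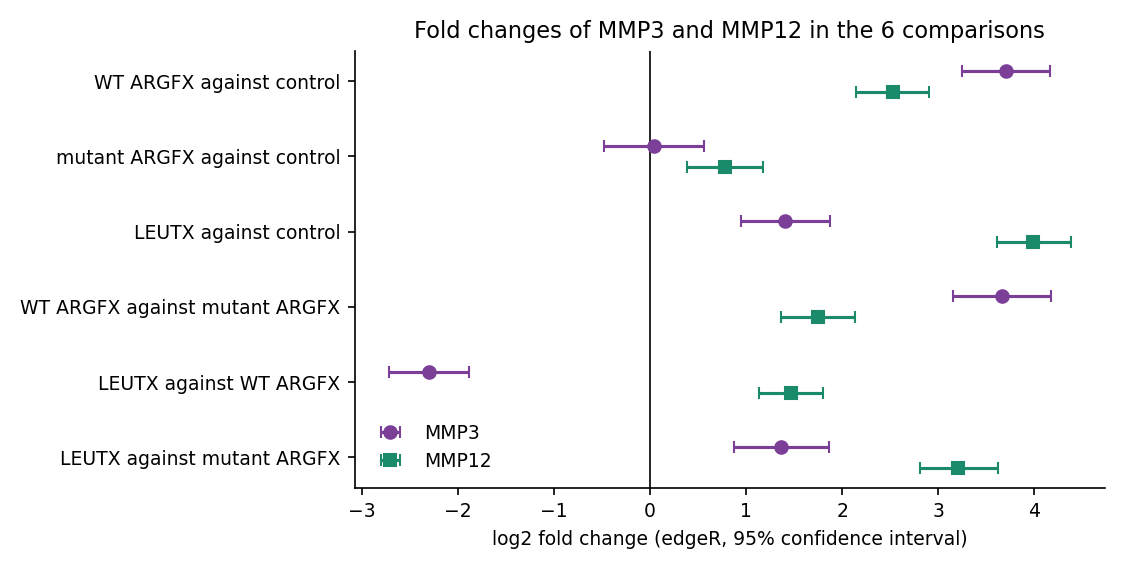
Log2 fold changes of MMP3 (circles) and MMP12 (squares) from edgeR in the 6 comparisons between groups, with 95% confidence intervals. LEUTX against WT ARGFX is the comparison in which the genes lie on opposite sides of 0, at -2.30 for MMP3 and 1.47 for MMP12, and mutant ARGFX against control the one in which the MMP3 interval, from -0.48 to 0.56, spans 0.

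From lowest to highest, the order of MMP3 levels was control (2.57 ± 0.759 CPM, SD, n = 4), mutant ARGFX (2.67 ± 0.661, n = 3), LEUTX (6.81 ± 1.06, n = 4) and WT ARGFX (33.7 ± 7.73, n = 4), and the first pair in that order did not differ beyond its spread. The order for MMP12 was control (3.48 ± 0.940 CPM, SD, n = 4), mutant ARGFX (6.01 ± 1.06, n = 3), WT ARGFX (20.1 ± 1.79, n = 4) and LEUTX (55.5 ± 8.95, n = 4), with no overlap between neighbours.

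The ratio of MMP12 to MMP3 within a sample shows how unequal the responses were. Since it is not corrected for length, only its changes between groups are read. The ratio of CPM values lay between 1.09 and 1.63 in the control samples, between 0.521 and 0.712 with WT ARGFX, between 1.95 and 2.71 with mutant ARGFX and between 7.55 and 9.07 with LEUTX. No group overlapped another. On the log2 scale the mean ratio was 3.01 ± 0.12 (SD, n = 4) with LEUTX and 1.15 ± 0.25 (SD, n = 3) with mutant ARGFX, a difference of 1.85 (two-sided exact permutation test, p = 0.0571, the smallest that 4 against 3 samples allow, so that this test could not pass 0.05).

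Against control the log2 ratio with LEUTX was higher by 2.58, and against WT ARGFX by 3.73 (two-sided exact permutation test, p = 0.0286 each, the smallest that 4 against 4 samples allow, and 0.0429 after Benjamini-Hochberg adjustment over the 3 ratio tests). These 2 comparisons use samples that took part in the choice of the genes.

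**Figure D3:**
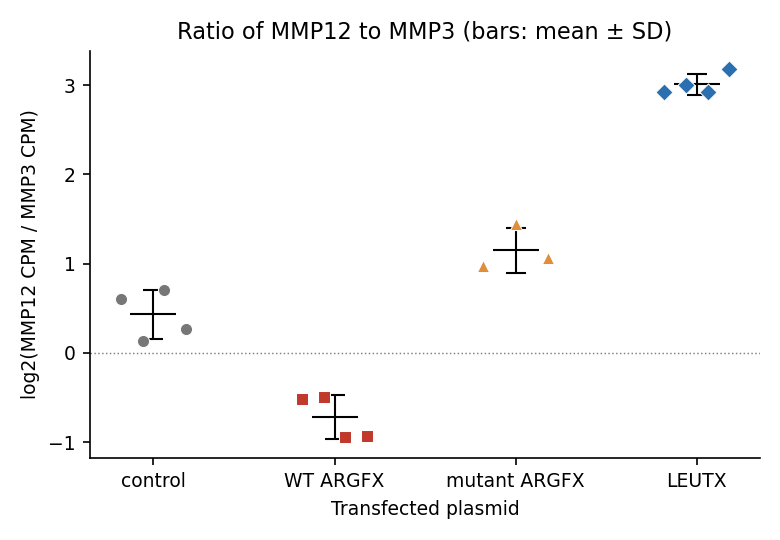
Log2 of the ratio of MMP12 to MMP3 CPM in each sample, by transfected plasmid, with the mean ± SD of each group as bars. The 4 WT ARGFX samples lie between -0.94 and -0.49 and the 4 LEUTX samples between 2.92 and 3.18, with the control and mutant ARGFX samples in between.

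The amount of transfected RNA was set beside the MMP levels. Mutant ARGFX samples 1 and 2 held more ARGFX RNA (6212 and 6606 CPM) than any WT ARGFX sample, and mutant sample 3 held 3408 CPM, within the WT range. In mutant samples 1 to 3, MMP3 lay at 3.43, 2.31 and 2.26 CPM and MMP12 at 6.79, 6.44 and 4.81 CPM. Among the WT ARGFX samples, replicate 1 held the most ARGFX RNA, 4506 CPM against 3039 to 3175 CPM in the others, while its MMP3 (29.3 CPM) and MMP12 (20.4 CPM) lay inside the range of the group. In the LEUTX group, LEUTX RNA lay at 1314, 1416, 1781 and 1621 CPM in samples 1 to 4, and LEUTX, MMP3 and MMP12 RNA put these samples in the same order, sample 1 lowest and sample 3 highest. With 4 samples no correlation was computed, and the part of transfected RNA levels in these differences was not tested.

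**Figure D4:**
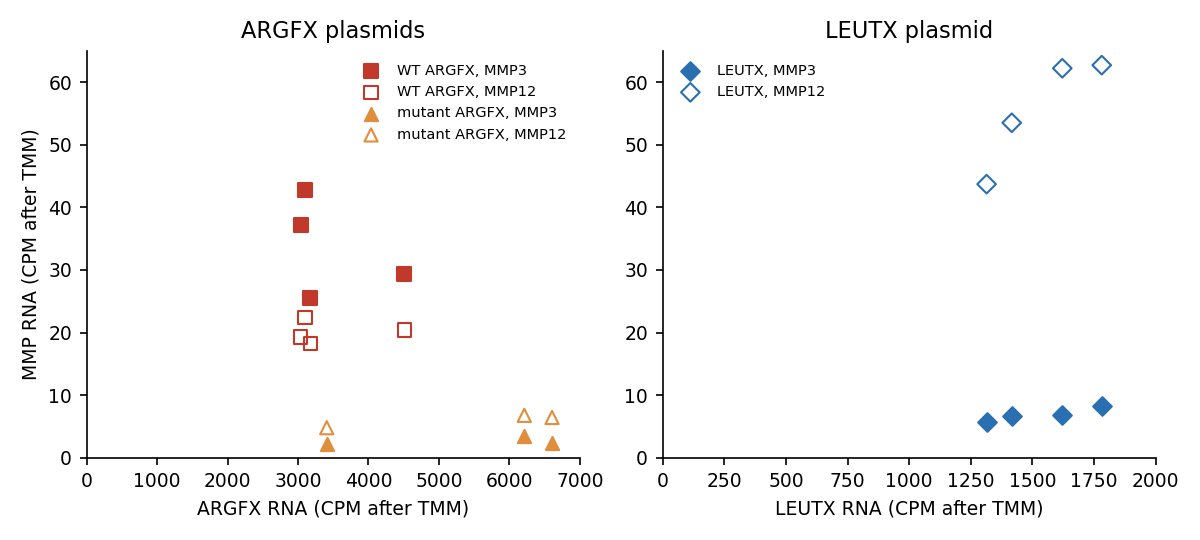
MMP3 (filled) and MMP12 (open) CPM against the CPM of the transfected gene, for the WT and mutant ARGFX samples on the left and the LEUTX samples on the right. The 3 mutant ARGFX samples lie at 3408 to 6606 CPM of ARGFX with MMP3 at no more than 3.43 CPM, whereas the 4 WT ARGFX samples hold MMP3 at 25.6 CPM or more.

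Other genes of matrix turnover could be read only where the study's list of genes upregulated with WT ARGFX pairs a symbol with an identifier. The copy used here holds the first 232 rows of that list, which runs from larger to smaller increases, with 220 symbols, and 286 further rows were not used here. The genes with a symbol are therefore those with the larger increases, at a log2 fold change of 0.74 or more in the present fit. That list was made on these samples, so that all members below were called up with WT ARGFX and their direction there is no independent evidence. Their values against control share those control samples, so the counts below are read against the 218 genes with a symbol other than MMP3 and MMP12, as well as against all genes tested. Of these 218, 52.8% were called up and 6.88% down with LEUTX over control, with a median log2 fold change of 0.64, where all genes tested gave 12.8%, 14.0% and -0.03. With mutant ARGFX over control 33.5% of the 218 were called up and 0 down, against 1.26% and 2.57% of all genes tested. Between LEUTX and mutant ARGFX 25.2% of the 218 were higher with LEUTX and 17.9% lower, with a median of 0.10, against 10.3%, 12.1% and -0.03 of all genes tested. The tissue inhibitors of metalloproteinases and the other MMP genes of chromosome 15 were therefore not analysed here.

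Of metalloproteinases and their inhibitors, MMP28 and ADAM12 could be read besides MMP3 and MMP12. MMP28, or epilysin, is a secreted metalloproteinase. It lay at 49.0 ± 11.5 CPM in control, 83.1 ± 9.23 with WT ARGFX, 69.3 ± 6.91 with mutant ARGFX and 61.6 ± 3.01 with LEUTX (SD, n = 4, 4, 3 and 4). MMP28 was not called with LEUTX, nor with mutant ARGFX, where it was below the fold threshold (log2 fold change 0.50, edgeR adjusted p = 0.0386). ADAM12, a membrane-anchored metalloproteinase of the ADAM family, lay at 42.2 ± 8.16, 74.5 ± 23.7, 70.0 ± 2.92 and 24.5 ± 1.54 CPM in the same order of groups. It rose with mutant ARGFX and fell with LEUTX (log2 fold changes over control of 0.73 and -0.78, edgeR adjusted p = 0.0337 and 0.00331). Over control with LEUTX, MMP28 had a log2 fold change of 0.33 (SE 0.14, edgeR adjusted p = 0.0562), below the 1.41 of MMP3 and the 3.99 of MMP12, and the differences between these genes were not tested.

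In the list of the pericellular protease system, 4 of 16 genes could be read. Against control, LEUTX raised 3 of them and lowered none, and mutant ARGFX raised 2 and lowered none. The shares called up among the genes with a symbol were 52.8% and 33.5%, and 4 genes are too few to read a difference from them. SERPINE2, a secreted inhibitor of serine proteases such as thrombin and plasminogen activators, lay at 322 to 476 CPM in control, 718 to 1049 with WT ARGFX, 295 to 398 with mutant ARGFX and 3106 to 3885 with LEUTX. Its rise with LEUTX was 3.17 on the log2 scale (SE 0.15, edgeR adjusted p = 4.1e-11). CAPN1, a calcium-dependent intracellular protease, and MRC2, a receptor that takes up collagen, rose by 1.47 and 0.77 with LEUTX. ANPEP, an aminopeptidase of the cell surface, lay at 9.32 CPM in control and 6.69 with LEUTX. It was lower with LEUTX but below the fold threshold, so it was not called (log2 fold change -0.48, edgeR adjusted p = 0.0117).

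In the list of matrix substrates 18 genes could be read, 10 of the 24 given by symbol and 8 collagen genes, which were taken by their name and have no fixed number. With mutant ARGFX 5 rose and none fell, where 33.5% of the genes with a symbol rose. With LEUTX 5 rose and 4 fell, with a median log2 fold change of 0.30, where 52.8% of the genes with a symbol rose and 6.88% fell, with a median of 0.64. FN1, which encodes fibronectin, rose with LEUTX by 1.56 (SE 0.26, edgeR adjusted p = 0.000104), as did COL11A1, TGFBI, IGFBP7 and COL5A2. COL15A1, COL6A3, COL3A1 and POSTN fell, POSTN by 0.67 on the log2 scale (SE 0.11, edgeR adjusted p = 8.04e-05). Between LEUTX and mutant ARGFX, 2 of the 18 were higher and 7 lower with LEUTX, with a median of -0.21, beside 25.2% higher, 17.9% lower and a median of 0.10 among the genes with a symbol.

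Of 36 signals and factors known to act on MMP genes, 9 could be read, and with LEUTX 4 rose and none fell, with a median log2 fold change of 0.52, near the share of 52.8% and the median of 0.64 of the genes with a symbol. IL1RL1, a receptor of the interleukin-1 family that binds IL-33, lay at 90.5 to 103 CPM in control and 99.6 to 110 with mutant ARGFX, and at 205 to 233 with WT ARGFX and up to 228 with LEUTX, where its mean was 217 ± 12.1 (SD, n = 4). It was 1.05 higher on the log2 scale with LEUTX than with mutant ARGFX (SE 0.08, edgeR adjusted p = 4.82e-08). IL34, a ligand of the macrophage receptor CSF1R, lay at 3.42 ± 0.441 CPM in control, 11.9 ± 1.12 with WT ARGFX, 6.55 ± 1.41 with mutant ARGFX and 3.92 ± 0.857 with LEUTX, and it was called over control with mutant ARGFX (log2 fold change 0.94, edgeR adjusted p = 0.00327) but not with LEUTX (0.20, adjusted p = 0.374). JDP2, a repressor that binds AP-1 sites, lay at 11.9 CPM in control and 8.96 with LEUTX, below the fold threshold, and was lower with LEUTX than with mutant ARGFX (log2 fold change -0.83, edgeR adjusted p = 2.61e-05).

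**Figure D5:**
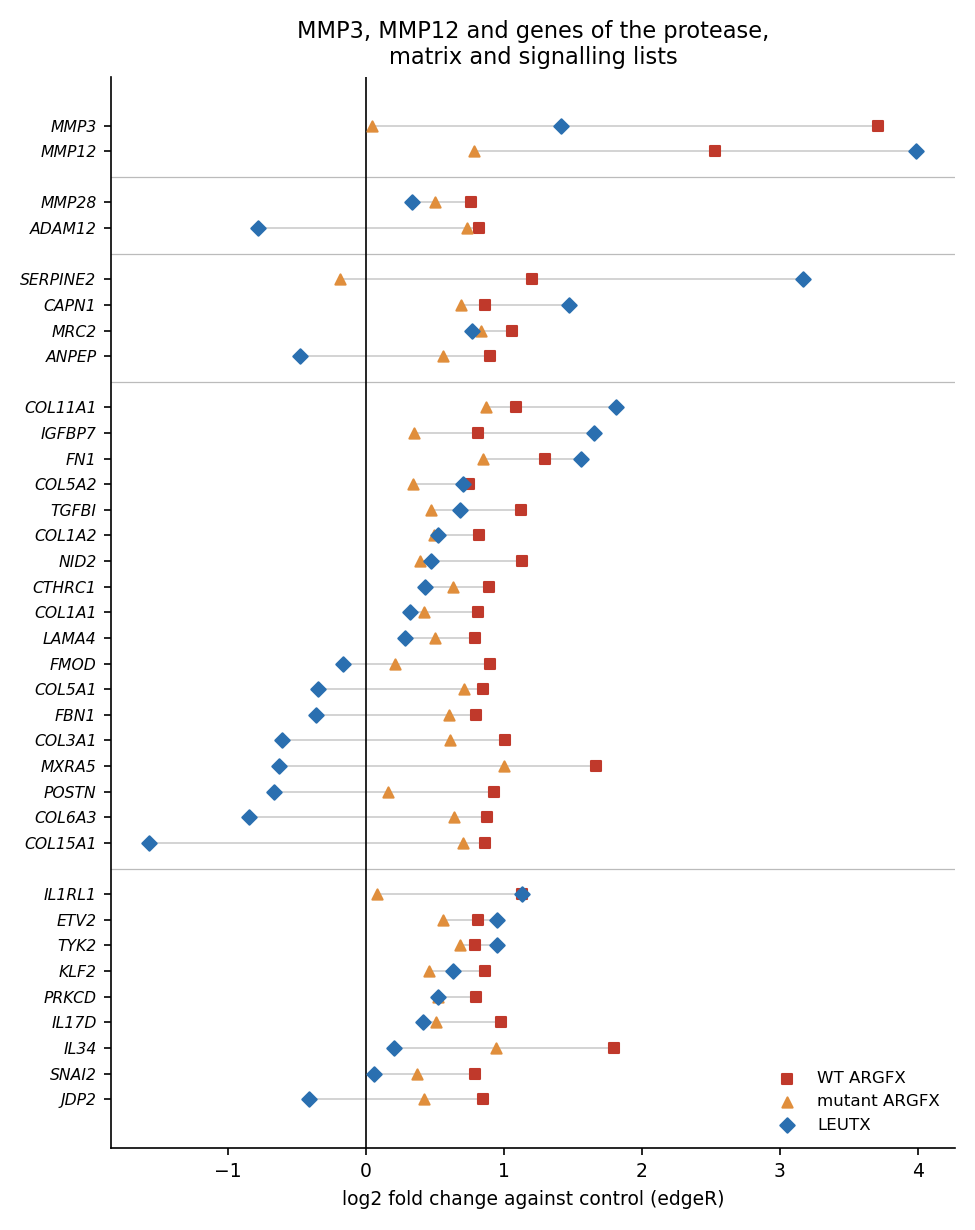
Log2 fold changes against control from edgeR for MMP3 and MMP12 and, separated by lines, for the readable metalloproteinases, pericellular protease genes, matrix substrates and signals, with WT ARGFX as squares, mutant ARGFX as triangles and LEUTX as diamonds. All 3 comparisons share the control samples, and the names come from the study's list of WT ARGFX genes, so every square lies above 0, while the diamonds run from -1.57 for COL15A1 to 3.99 for MMP12.

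Markers of the labelled cell type were read where they could be. This is no test of the label, since markers of most other cell types could not be read. Of 16 fibroblast markers 8 could be read, and their summed level was 29903 to 37531 CPM in control, 53064 to 66585 with WT ARGFX, 43571 to 50255 with mutant ARGFX and 34486 to 53710.4 with LEUTX, COL1A1 and COL1A2 being the most abundant. The sum rests mostly on COL1A1 and COL1A2, and all 8 are also among the 18 matrix substrates above. With LEUTX over control 1 of the 8 rose and 3 fell (median log2 fold change -0.35), beside 52.8% up and 6.88% down among the genes with a symbol. Against mutant ARGFX 0 were higher and 5 lower with LEUTX (median -0.90), beside 25.2% and 17.9%. Of 9 markers of smooth muscle and myofibroblasts 5 could be read, with a sum of 842 to 1442 CPM in control, 1654 to 1984 with mutant ARGFX, 2546 to 3915 with WT ARGFX and 4962 to 6338 with LEUTX, and ACTA2 the most abundant. With LEUTX all 5 rose over control, with a median log2 fold change of 1.77, beside 52.8% and a median of 0.64 among the genes with a symbol, and 12.8% and -0.03 among all genes tested. The markers of both kinds could be read only because they were called up with WT ARGFX, which fixes that their sums are higher there than in control, as it does for MMP12. Against mutant ARGFX, 4 of the 5 smooth muscle markers were called higher with LEUTX and 1 was not called (median log2 fold change 1.08), beside 25.2% of the genes with a symbol. Their part in the MMP12 differences was not tested. None of the 11 macrophage, 7 keratinocyte, 6 endothelial and 5 adipocyte markers is paired with an identifier, and they were not analysed here. In bulk RNA, more cells of a kind and more RNA per cell cannot be told apart.

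The genes with the most similar pattern to each member were found among all genes tested, by the root mean square difference of log2 CPM over the 15 samples, each gene centred on its mean. MMP12 stood at rank 1236 of 14263 in likeness to MMP3 (1.41 log2 units), and MMP3 at rank 2018 in likeness to MMP12. By Pearson correlation MMP12 stood at rank 720 for MMP3 and MMP3 at rank 2639 for MMP12 (r = 0.591 over the 15 samples, which share their libraries and groups). The 5 nearest genes to MMP3 that carry a symbol were APOA1 (0.901), ASPA (0.902), GSX1 (0.969), FIBIN (1.04) and IL34 (1.09), at ranks 1, 2, 4, 5 and 9. APOA1, the main protein of high-density lipoprotein, lay at 0.515 CPM in control, 10.1 with WT ARGFX, 0.998 with mutant ARGFX and 6.74 with LEUTX. ASPA lay at 6.54 CPM in control, 20.2 with WT ARGFX and 6.73 with mutant ARGFX, and was 0.88 higher on the log2 scale with LEUTX than in control.

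The 5 nearest to MMP12 were SERPINE2 (0.534 log2 units), TMEM158 (0.606), SYNC (0.713), PRR5L (0.715) and ACTA2 (0.739), at ranks 1, 3, 9, 10 and 12. ACTA2, the smooth muscle actin of myofibroblasts, lay at 683 CPM in control, 2113 with WT ARGFX, 1214 with mutant ARGFX and 3495 with LEUTX. All 10 of these names come from the list of genes upregulated with WT ARGFX, so that genes without a symbol, which held the other ranks, could not be named.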

How the data were processed

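RNA-seq libraries of 15 BFF samples were analysed. Per the labels and the paper's methods, the authors trimmed reads with Trimmomatic, pseudoaligned them with kallisto 0.46.1 to the ARS-UCD1.2 transcriptome with ETCHbox sequences added, and summed the estimates to genes with tximport. The deposited values are expected counts, not normalized, and 93.08% are whole numbers within 1e-06. The authors left out a further mutant ARGFX sample, an outlier that lay with the WT ARGFX samples in their principal component plots. It was not analysed here, so the mutant ARGFX values are those of the samples kept after that choice. Titles gave the groups, and headers matched columns to titles.

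Expected counts were rounded and fitted with edgeR 4.0.16 (R 4.3.3) over all 15 samples, with its low-count filter, TMM normalization, the quasi-likelihood test and Benjamini-Hochberg adjustment over all 14264 genes. SEs are the size of the log2 fold change over the root of F. Calls required an adjusted p under 0.05 and a fold over 1.5. The study's further threshold on mean TPM was not applied, as the table holds no TPM. Tested on simulated counts for LEUTX against mutant ARGFX (14092 genes, 200 changed 2-fold), the fit recovered 78% with 5 false calls. The simulation changed the LEUTX group alone. In the data 10.3% of genes were called up and 12.1% down, so these figures need not hold there. Ratios used a pseudocount of 0.1 CPM and exact permutation tests (scipy 1.17.1).

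The genes and lists were chosen with earlier results of these data known. Symbols came from the identifier and symbol columns of the study's supplementary list of genes upregulated with WT ARGFX, of which the copy used here holds the first 232 rows (220 symbols), with 286 further rows not used here. No value of that list enters a result. The RefSeq table (ARS-UCD2.0) matched 0 identifiers and was used by symbol for gene order only. Named were MMP3 and MMP12, the transfected genes, list members, and the 5 nearest genes with a symbol. Alternatives were DESeq2 1.42.0, other scaling, no filter, a replicate block, leaving out each sample, and fits to each pair of groups. No pair of replicates agreed within sampling noise. Counting depth limits the lowest values, and p-values measure the spread between transfections of the cells of a single fetus.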

Additional observations from a re-analysis of the deposited data

Results flagged for a closer look

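ARGFX RNA in WT ARGFX replicate 1 lay at 4506 CPM, far from the other 3 samples of its group at 3039 to 3175 CPM. It was the only value that stood apart by Dixon's criterion in 11 sets of 4 values examined, where chance gives 0.55. These sets share samples. MMP3 and MMP12 in that sample lay within the range of the group.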

How the results depend on the processing

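Over the 10 fold changes of MMP3 and MMP12 outside the comparison that chose them, 214 of 220 values under other settings kept their direction and their side of the threshold, many of them in fits that left out a sample of neither group compared. The exceptions were all in mutant ARGFX against control. For MMP12 there, the fit to the groups compared alone gave a log2 fold change of 0.78 with an adjusted p of 0.0579 from edgeR, and leaving out a sample gave 0.64 to 0.94 with adjusted p from 0.00648 to 0.0871. For MMP3 there, leaving out a sample gave -0.17 to 0.21, with no call in any fit. The cause was not tested. Leaving out a sample left the ratio of MMP12 to MMP3 with LEUTX higher by 2.48 to 2.67 on the log2 scale against control and by 3.65 to 3.8 against WT ARGFX, with adjusted p from 0.0571 to 0.0857 in exact permutation tests, because 4 against 3 samples cannot pass 0.05.

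Deviations from the group means correlated from -0.323 to 0.396 in 16 same-numbered pairs of samples, with a mean of 0.00963 and 7 pairs over 0.1. The numbers were therefore not taken to pair samples, although pairs with different numbers were not examined beside them. With the replicate block, over the 13 numbered samples, LEUTX against mutant ARGFX gave 1.44 for MMP3 and 3.26 for MMP12, and MMP12 with mutant ARGFX over control gave 0.76 (adjusted p = 0.0480 from edgeR). The block changed no call of either gene, and the number of genes called higher with WT than with mutant ARGFX was 55 over all samples, 37 over the numbered samples without the block and 28 with it.

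Background counts depended on the thresholds. Adding a mean CPM above 5 changed the genes called up and down from 877 and 978 to 570 and 605 (WT ARGFX against control), from 1827 and 1990 to 1141 and 1258 (LEUTX against control), from 1401 and 1686 to 838 and 1079 (LEUTX against WT ARGFX) and from 1469 and 1729 to 919 and 1109 (LEUTX against mutant ARGFX), and those called up from 180 to 119 (mutant ARGFX against control) and from 55 to 35 (WT against mutant ARGFX). Without a fold threshold these comparisons gave 2247 and 2167, 3155 and 3536, 2514 and 2998, and 2471 and 2885 genes, and 607 up and 854 down with mutant ARGFX against control (366 down by the main rule). Without mutant ARGFX sample 1 or 3, 112 and 105 genes were up with mutant ARGFX. Likeness ranked by Pearson correlation kept 2 of the 5 named genes nearest to MMP3 and 1 of those nearest to MMP12.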
